A study of Mus musculus with 6 samples.

Results

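Transcripts of 10 aldehyde dehydrogenases were examined in mouse liver after short treatment with liraglutide. They are Aldh1b1, Aldh2, Aldh3a2, Aldh4a1, Aldh5a1, Aldh6a1, Aldh7a1, Aldh8a1, Aldh9a1 and Aldh16a1, of 23412 gene symbols in the raw count table. They were chosen by name as a set labelled non-retinoid, a label not tested here, and with their counts in liraglutide and PBS livers already known. Differences between those groups are therefore given for these genes as a description and support nothing further. The other 11 aldehyde dehydrogenase genes of the table served for comparison.

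The tissue was whole liver of C57BL/6J mice, an inbred strain, labelled as 8 weeks of age, with 3 RNA sequencing libraries per group. All mice ate a high-fat diet for 4 weeks. One group (Lira) then received liraglutide at 300 µg/kg, injected under the skin for 3 days, and the other (PBS) received phosphate-buffered saline. Liraglutide is an agonist of the GLP-1 receptor; the natural ligand comes from the gut and lowers appetite as well as blood glucose. Both groups shared the diet, and no chow-fed or pair-fed group was analysed here, so effects of eating less and other effects of the drug cannot be told apart. Whether replicates were separate animals is not in the labels, and p-values then cover only the spread among these libraries, which may be technical. Counts assigned to genes totalled 20888991 to 25404192 in Lira libraries and 21901811 to 27007182 in PBS libraries. In bulk tissue, fewer cells of a type and less RNA per cell cannot be told apart.

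Aldehyde dehydrogenases oxidise aldehydes to carboxylic acids with NAD or NADP as electron acceptor. In liver they clear acetaldehyde made from ethanol and reactive aldehydes from lipid peroxidation, and several catalyse steps of amino acid breakdown. The members of this set differ in their substrates, so the family samples several catabolic routes at the same time.

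Liraglutide and PBS livers differed most in Aldh1b1 and Aldh3a2, in opposite directions. Aldh1b1, a mitochondrial enzyme for acetaldehyde and related short aldehydes, was 4.49-fold lower in Lira livers. Aldh3a2, the membrane-bound fatty aldehyde dehydrogenase, was 1.92-fold higher. The amino acid enzymes Aldh7a1, Aldh4a1 and Aldh6a1 were lower by 1.44-fold, 1.43-fold and 1.35-fold, and the other 5 members were lower by at most 1.19-fold. For Aldh2, the most abundant member, the groups overlapped.

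The promoters of the 2 members with the largest differences are shown because these genes differed in opposite directions. Each is the 250 bases before the start site from RefSeq (GRCm38.p6), 5′ to 3′ on the gene's own strand. The Aldh1b1 stretch is chr4:45798772-45799021 on the plus strand and the Aldh3a2 stretch is chr11:61267187-61267436 on the minus strand. Capitals mark the motifs found. The RefSeq start of Aldh1b1 is also its GENCODE start. For Aldh3a2 the protein-coding GENCODE transcripts start at 61267185, beside the RefSeq start, but 2 noncoding ones start earlier, the farthest at 61267464. Their first exon covers 198 bases of the printed stretch (61267239 to 61267436), which is thus upstream of the coding transcripts only.
Aldh1b1: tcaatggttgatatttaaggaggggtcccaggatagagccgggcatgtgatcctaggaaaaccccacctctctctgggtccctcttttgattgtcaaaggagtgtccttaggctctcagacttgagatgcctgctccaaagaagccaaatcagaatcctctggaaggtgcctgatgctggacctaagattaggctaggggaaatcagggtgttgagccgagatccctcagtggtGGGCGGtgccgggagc
Aldh3a2: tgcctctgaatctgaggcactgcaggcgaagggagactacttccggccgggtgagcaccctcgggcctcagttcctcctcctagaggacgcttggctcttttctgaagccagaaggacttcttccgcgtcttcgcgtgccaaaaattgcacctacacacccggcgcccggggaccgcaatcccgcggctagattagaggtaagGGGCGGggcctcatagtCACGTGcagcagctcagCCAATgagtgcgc
Both strands were searched for 8 motifs. The Aldh1b1 stretch held a GC box (GGGCGG) beginning 16 bases before the start. The Aldh3a2 stretch held a GC box beginning 47 bases, an E-box (CACGTG) 30 bases and a CCAAT box (CCAAT) 13 bases before it, all between that noncoding exon and the start. Of 27025 promoters of that length, 32.9% held a GC box, 34.5% a CCAAT box and 6.05% an E-box. Neither stretch held the nuclear receptor half-site AGGTCA (13.8% of promoters), a pair of half-sites with 1 base between (AGGTCANAGGTCA, 0.037%), the forkhead core GTAAACA (3.09%), the TATA box TATAAA (13.0%) or the CREB half-site TGACG (17.9%). These matches describe letters in this window only. The promoter table matched 8 of the 10 members, without Aldh2 and Aldh7a1.

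Aldh1b1 lies on chromosome 4 (45799022 to 45804604, plus strand, GRCm38) and has 2 exon blocks with 2298 bp in all. No other annotated gene overlaps its exons, and none of its 50-base words occurs in a transcript of another gene. Its reads numbered 171 in Lira161, 185 in Lira162 and 229 in Lira164, against 1004 in PBS155, 827 in PBS157 and 825 in PBS158, an order of libraries kept for all values that follow. In CPM, which corrects counts for sequencing depth, these were 8.25, 7.14 and 9.54 in Lira livers and 36.8, 35.4 and 39.6 in PBS livers. All 3 Lira libraries were far below all 3 PBS libraries, and the nearest pair across the groups differed 3.71-fold. The means were 8.31 ± 1.20 CPM in Lira livers and 37.3 ± 2.13 CPM in PBS livers (SD, n = 3 each). The log2 fold change was -2.17 ± 0.13 (SE), the 25th lowest among 9258 genes with a mean of at least 5 CPM. With each library left out in turn it lay between -2.29 and -2.07.

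Aldh2, on chromosome 5 (121566027 to 121593824, minus strand), encodes the mitochondrial enzyme that clears most acetaldehyde during ethanol metabolism. Its level was 1676, 1743 and 1872 CPM in Lira livers and 1880.2, 1843 and 2264 CPM in PBS livers. The groups overlapped, since Lira164 lay above PBS157. The log2 fold change was -0.18 ± 0.13. Per exon length, the Aldh1b1 level was 1.05 ± 0.119% of the Aldh2 level in Lira livers and 4.18 ± 0.247% in PBS livers (SD, n = 3 each). Both mitochondrial acetaldehyde enzymes summed to 1772 ± 100.5 CPM in Lira livers and 2033 ± 235 CPM in PBS livers, nearly all of it Aldh2.

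Aldh3a2, on chromosome 11 (61223417 to 61267464, minus strand), oxidises long-chain aldehydes that arise from fatty alcohols, sphingosine 1-phosphate and branched fatty acids. In humans its loss causes Sjögren-Larsson syndrome. Its level was 1467, 1494 and 1255 CPM in Lira livers and 749, 667 and 777 CPM in PBS livers. Every Lira library was above every PBS library, and Lira164 was the lowest of its group. The means were 1405 ± 131 CPM in Lira livers and 731 ± 57.0 CPM in PBS livers, a log2 fold change of 0.94 ± 0.12 and the 169th highest of the 9258 genes. It was the member with a positive log2 fold change, and the other 9 were negative.

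**Figure D1:**
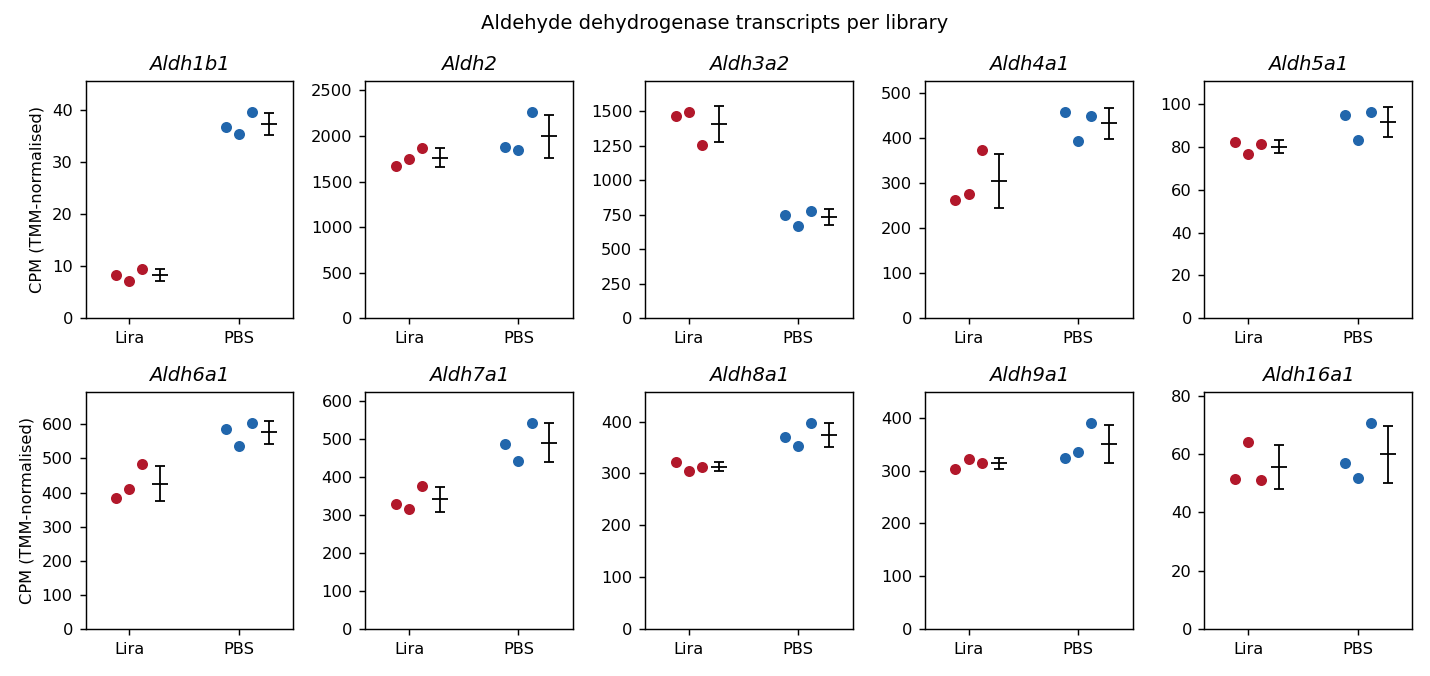
CPM of each of the 10 aldehyde dehydrogenases (vertical axes from 0, TMM-normalised) in the 3 Lira libraries (red) and 3 PBS libraries (blue). Points are libraries, in the order used in the text, and bars are mean and SD. Aldh1b1 lies between 7.14 and 9.54 in Lira livers and between 35.4 and 39.6 in PBS livers, and Aldh3a2 is the member that is higher in all Lira libraries.

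Among the members that act in amino acid breakdown, Aldh7a1 and Aldh4a1 had the lowest log2 fold changes, which differed by less than their SEs. Aldh7a1 (chromosome 18, 56509687 to 56572951) oxidises the semialdehyde of aminoadipate in the lysine pathway and also betaine aldehyde in choline oxidation. It was at 330.2, 317 and 378 CPM in Lira livers and 487, 444 and 544 CPM in PBS livers, with no overlap (-0.53 ± 0.12). Aldh4a1 (chromosome 4, 139622866 to 139649690) makes glutamate from the semialdehyde that proline dehydrogenase produces. It was at 263, 276 and 373 CPM in Lira livers and 458, 394 and 448 CPM in PBS livers (-0.51 ± 0.15). Its groups were separated by 1.06-fold between Lira164 and PBS157, a gap much smaller than the spread within the Lira group.

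Aldh6a1 (chromosome 12, 84430717 to 84451004) converts methylmalonate semialdehyde to propionyl-CoA in the breakdown of valine and thymine. Its level was 384, 409.9 and 485 CPM in Lira livers and 587, 538 and 605 CPM in PBS livers (-0.44 ± 0.12). Aldh5a1 (chromosome 13, 24907579 to 24937661), which closes the GABA shunt by making succinate, was at 82.4, 76.6 and 81.3 CPM in Lira livers and 95.2, 83.5 and 96.4 CPM in PBS livers (-0.20 ± 0.09). Aldh8a1 (chromosome 10, 21377291 to 21396585) acts on aminomuconate semialdehyde in tryptophan breakdown and was earlier described as a retinal dehydrogenase. It was at 322, 305 and 313 CPM in Lira livers and 371, 353 and 398 CPM in PBS livers (-0.26 ± 0.10). For all 3 genes every Lira library lay below every PBS library, though for Aldh5a1 the nearest pair, Lira161 and PBS157, was nearly equal.

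Aldh9a1 (chromosome 1, 167349991 to 167368532) makes butyrobetaine, the last intermediate of carnitine synthesis. It was at 303, 323 and 315 CPM in Lira livers and 324, 336 and 391 CPM in PBS livers (-0.16 ± 0.11), and its closest libraries, Lira162 and PBS155, were nearly equal. Aldh16a1 (chromosome 7, 45140684 to 45154584) is an atypical member whose human protein lacks the catalytic cysteine. It was at 51.4, 64.1 and 50.9 CPM in Lira livers and 57.0, 51.9 and 70.7 CPM in PBS livers, with overlapping groups (-0.11 ± 0.14). Without library PBS158 its sign turned, at 0.03.

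All 10 members passed the low-count filter, as did 12626 genes in all. In edgeR's quasi-likelihood fit over those genes, with Benjamini-Hochberg adjustment and a threshold of 0.05, Aldh1b1 and Aldh7a1 were called lower and Aldh3a2 higher. Over all tested genes 8.77% were called, 4.69% lower and 4.08% higher. The groups did not overlap for 8 of the 10 members, against 31.3% of all tested genes. Since the same contrast was known when the members were chosen, nothing is read from these counts. The median log2 fold change was -0.23 over the members and 0.01 over all tested genes. Aldh1b1 and Aldh3a2 kept their calls under all 14 alternative settings. The call of Aldh7a1 was lost in the 4 fits that left out Lira161, Lira162, PBS155 or PBS158. Aldh4a1 and Aldh6a1 were called without Lira164 and with DESeq2, whose Wald test called 12.2% of its genes, and Aldh4a1 also without the low-count filter.

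**Figure D2:**
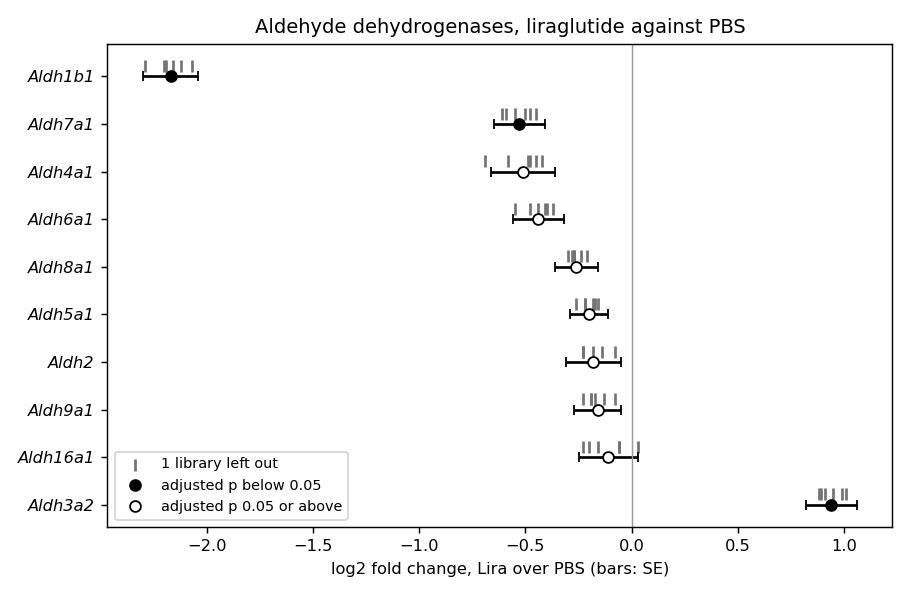
Log2 fold change (Lira over PBS) of the 10 members with SE, and grey ticks for the values with 1 library left out. Filled points passed an adjusted p of 0.05 over all genes. Aldh1b1 stands at -2.17 and Aldh3a2 at 0.94, with the other 8 between -0.53 and -0.11.

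The libraries of a group did not move together in the same way for all members. In the Lira group, Lira164 was the highest library for 5 members (Aldh1b1, Aldh2, Aldh4a1, Aldh6a1 and Aldh7a1) and the lowest for Aldh3a2 and Aldh16a1. It was therefore the Lira library nearest to the PBS mean for Aldh1b1, Aldh2, Aldh3a2, Aldh4a1, Aldh6a1 and Aldh7a1. In the PBS group, PBS158 was the highest library for 9 members and PBS157 the lowest for 9. The coefficient of variation ran from 2.73% (Aldh8a1) to 19.7% (Aldh4a1) in Lira livers and from 5.73% (Aldh1b1) to 16.2% (Aldh16a1) in PBS livers.

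Levels were set side by side between genes after division by the length of all annotated exons together. On that scale Aldh2 had the highest mean in both groups. It was at 344 ± 19.4 CPM per kilobase in Lira livers and 389 ± 45.4 in PBS livers (SD, n = 3 each). Aldh3a2 was next, at 250.1 ± 23.3 in Lira livers and 130.1 ± 10.1 in PBS livers. Aldh9a1, Aldh6a1, Aldh8a1, Aldh7a1 and Aldh4a1 followed at 62.0 to 92.7 in Lira livers and 85.2 to 104 in PBS livers. In PBS livers these 5 overlapped with their neighbours in the order. Aldh5a1, at 14.2 ± 0.550 in Lira livers and 16.2 ± 1.27 in PBS livers, and Aldh16a1, at 9.86 ± 1.33 and 10.6 ± 1.73 in the same groups, were low in both. Aldh1b1 was at 3.62 ± 0.522 in Lira livers, the lowest member there, and at 16.2 ± 0.929 in PBS livers, level with Aldh5a1. The order depends on the length used. With the longest protein-coding transcript as the length, a choice added after the data were seen, Aldh3a2 was at 455 ± 42.4 in Lira livers and 237 ± 18.4 in PBS livers, and Aldh2 at 456 ± 25.8 in Lira livers and 516 ± 60.2 in PBS livers. Aldh3a2 was then above Aldh2 in Lira161 and Lira162 and below it in Lira164 and in all PBS libraries. Aldh8a1, at 139 ± 3.78 in Lira livers and 166 ± 9.92 in PBS livers, was then above Aldh9a1 in both groups and above Aldh6a1 in the mean of Lira livers. Aldh1b1 was lowest in Lira livers with either length. With transcript length its PBS mean (16.2 ± 0.929) also ranked lowest, beside Aldh5a1 (16.2 ± 1.27) and Aldh16a1 (16.9 ± 2.74), whose PBS libraries overlapped with its own.

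**Figure D3:**
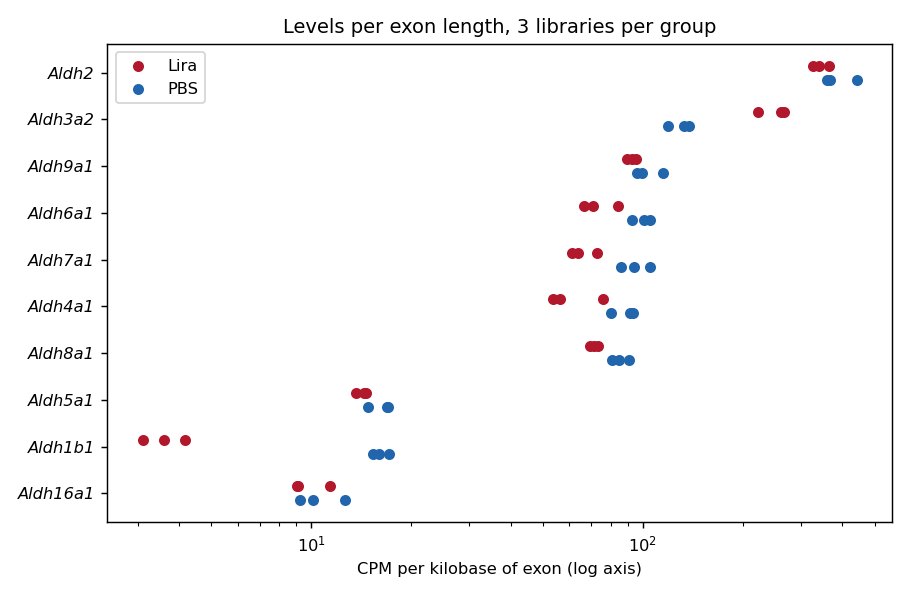
CPM per kilobase of exon, all annotated exons together (log axis), for the 10 members, ordered by their PBS mean, with Lira libraries in red above PBS libraries in blue. Aldh1b1 lies beside Aldh5a1 in PBS livers and below all other members in Lira livers.

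The summed level of the 10 members differed little, at 5012 ± 124 CPM in Lira livers and 5141 ± 451 CPM in PBS livers (SD, n = 3 each). Its make-up differed more. Per exon length, Aldh3a2 held 25.4 ± 2.89% of the members' sum in Lira livers and 12.6 ± 0.502% in PBS livers, with no overlap. Aldh1b1 held 0.366 ± 0.0478% in Lira livers and 1.57 ± 0.0465% in PBS livers, and with transcript length 0.242 ± 0.0331% in Lira livers and 1.08 ± 0.0295% in PBS livers. Aldh2 held 34.8 ± 1.07% in Lira livers and 37.6 ± 1.36% in PBS livers. Aldh3a2 was 73.1 ± 10.4% of the Aldh2 level in Lira livers and 33.6 ± 2.54% in PBS livers. With transcript length these were 100.2 ± 14.2% in Lira livers and 46.0 ± 3.48% in PBS livers.

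**Figure D4:**
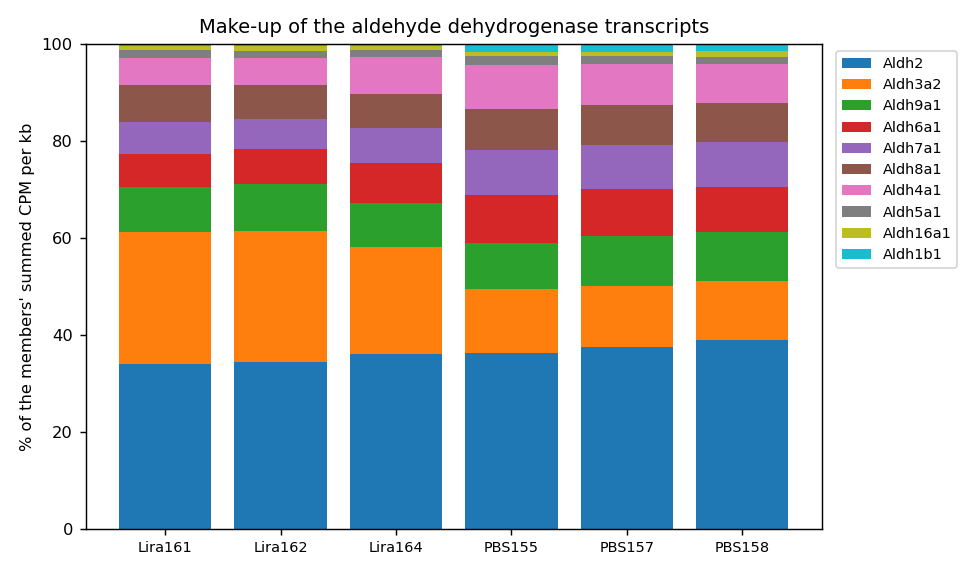
Share of each member in the summed CPM per kilobase of the 10 members (vertical axis, percent), 1 bar per library, Lira libraries on the left. Aldh3a2 averages 25.4% in Lira livers and 12.6% in PBS livers, and the thin top band is Aldh1b1.

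Of the other 11 aldehyde dehydrogenase genes, 6 were tested, and 3 fell in Lira livers while none rose. Over all tested genes 4.69% were called lower and 4.08% higher. This list was written with earlier results of these data known, so its count is a description only. Aldh1l1, the cytosolic folate enzyme, averaged 333 ± 16.2 CPM in Lira livers and 809.9 ± 94.2 CPM in PBS livers (log2 fold change -1.28 ± 0.12, edgeR adjusted p = 0.00258). Aldh1a7 (87.1 ± 3.49 CPM in Lira livers and 175 ± 27.8 CPM in PBS livers, edgeR adjusted p = 0.00399) and the retinal dehydrogenase gene Aldh1a1 (808 ± 168 CPM in Lira livers and 1625 ± 355 CPM in PBS livers, edgeR adjusted p = 0.0158) also fell. The Aldh1a1 call was absent in the fits that left out Lira161, Lira162 or PBS158. Reads of Aldh1a1 and Aldh1a7, which are near copies, may have been split between them, which makes both values uncertain. Aldh3b1, Aldh1a3 and Aldh18a1 had log2 fold changes of 0.49 ± 0.26, 0.73 ± 0.38 and 0.29 ± 0.41 at means below 2 CPM and did not pass.

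Genes that act before, after or beside the members were described from 12 lists of pathway partners, the family list above included. Of 110 distinct tested genes, 27 fell and 4 rose, where over all tested genes 4.69% were called lower and 4.08% higher, the background for each list count that follows. The median of their log2 fold changes was -0.22, beside 0.01 over all tested genes. Since the lists were written with earlier results of these data known, the counts and medians of the lists are a description only. The calls rested in part on the libraries used. Without Lira161, Lira162 or PBS158, 13, 14 and 13 genes were lower, and 13 of the 31 called genes kept their call whichever library was left out. All p-values for these genes are from edgeR's fit, adjusted over all tested genes.

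In alcohol oxidation, which makes the acetaldehyde that Aldh1b1 and Aldh2 use, and in acetate activation, which uses their product, 2 of 8 tested genes fell. Acss2, which activates acetate to acetyl-CoA, averaged 55.6 ± 3.22 CPM in Lira livers and 110.0 ± 21.1 CPM in PBS livers (-0.98 ± 0.14, adjusted p = 0.00579). Adh4, an alcohol dehydrogenase gene, averaged 75.1 ± 25.4 CPM in Lira livers and 182 ± 19.2 CPM in PBS livers (-1.28 ± 0.25, adjusted p = 0.0252). The Adh4 call did not survive the absence of Lira161 or of any 1 PBS library, nor the fit without the low-count filter. Among other enzymes that act on reactive aldehydes, 2 of 13 fell. They were the aldehyde oxidase gene Aox3 (-1.60 ± 0.27, adjusted p = 0.0155) and Gsta4, a glutathione transferase for hydroxynonenal (-0.60 ± 0.11, adjusted p = 0.0147). Aox3 lost its call without Lira161 or PBS158, and Gsta4 without either of these or Lira162.

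On the proline side of Aldh4a1, 1 of 11 tested genes fell, the proline dehydrogenase gene Prodh. It averaged 73.4 ± 4.06 CPM in Lira livers and 156 ± 28.1 CPM in PBS livers (-1.09 ± 0.13, adjusted p = 0.00399). DESeq2 called 3 genes of this list lower. Of 4 tested GABA genes, the transaminase gene Abat, whose product feeds Aldh5a1, fell (log2 fold change -0.50 ± 0.11, adjusted p = 0.0277). The transporter gene Slc6a12 fell as well (-0.48 ± 0.10, adjusted p = 0.0193). Abat kept its call only without Lira164 among the 6 fits with a library left out, and Slc6a12 lost it without Lira162, PBS157 or PBS158.

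Branched-chain amino acid and propionyl-CoA genes, the route of Aldh6a1, were lower where they changed, in 6 of 21 tested. Acadsb, a short branched-chain acyl-CoA dehydrogenase, averaged 106 ± 15.2 CPM in Lira livers and 170.0 ± 2.84 CPM in PBS livers (-0.68 ± 0.12, adjusted p = 0.0102). Ivd, the isovaleryl-CoA dehydrogenase gene (-0.65 ± 0.12, adjusted p = 0.0129), and Dbt, a subunit of the branched-chain ketoacid dehydrogenase (-0.67 ± 0.12, adjusted p = 0.0135), fell as well. Hibadh, whose product makes the substrate of Aldh6a1, also fell (log2 fold change -0.52 ± 0.12, adjusted p = 0.0299). Mccc2 (-0.40) and Pcca (-0.44), named after their values were seen, were the other 2. Acadsb kept its call whichever library was left out. Dbt lost it without PBS158, Ivd without Lira161, Lira162 or PBS158, and Hibadh and Pcca without those 3 or PBS157. Mccc2 kept it only without PBS155, and Pcca also failed when scaled by library totals. The median of the list was -0.32.

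Of 7 tested lysine genes 3 fell. They were Pipox, an oxidase for sarcosine and pipecolate (-0.88 ± 0.14, adjusted p = 0.00773), Dhtkd1, the oxoadipate dehydrogenase subunit (-0.63 ± 0.09, adjusted p = 0.00669), and Gcdh, the glutaryl-CoA dehydrogenase (-0.55 ± 0.11, adjusted p = 0.0187). Gcdh was no longer called when Lira161, Lira162 or PBS158 was left out. Aass, the enzyme directly before Aldh7a1 and named after its values were seen, averaged 318 ± 63.2 CPM in Lira livers and 338 ± 22.8 CPM in PBS livers (-0.09 ± 0.15, adjusted p = 0.745). In choline oxidation, which also holds a step of Aldh7a1, 3 of 6 tested genes fell. Bhmt, which passes a methyl group of betaine to homocysteine, was at 1409, 1676 and 1408 CPM in Lira livers and 2809, 3925 and 6592 CPM in PBS livers (-1.57 ± 0.29, adjusted p = 0.0199). Its PBS libraries were widely spread, and the call was lost without any 1 of the Lira libraries. The mitochondrial enzymes Sardh (-0.88 ± 0.15, adjusted p = 0.0114) and Dmgdh (-0.77 ± 0.15, adjusted p = 0.0175) take the next methyl groups. Sardh lost its call without Lira161 and Dmgdh without Lira161 or Lira162.

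The tryptophan to NAD list, in which Aldh8a1 competes with NAD synthesis for a shared route, had 4 of 8 members lower. Ido2 averaged 35.2 ± 8.44 CPM in Lira livers and 94.5 ± 1.41 CPM in PBS livers (-1.43 ± 0.16, adjusted p = 0.00391). Afmid (-1.27 ± 0.19, adjusted p = 0.00773), Haao (-0.93 ± 0.13, adjusted p = 0.00589) and Kmo (-0.49 ± 0.11, adjusted p = 0.0280) code for later steps of the kynurenine route. Kmo lost its call without Lira161, Lira162, PBS157 or PBS158, and the other 3 kept theirs. Acmsd, whose product makes the substrate of Aldh8a1 and which was named after its values were seen, averaged 4.03 ± 0.235 CPM in Lira livers and 5.57 ± 1.25 CPM in PBS livers (-0.47 ± 0.20, adjusted p = 0.180).

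Carnitine genes were higher where they changed. Of 4 tested, Slc22a5, the carnitine transporter, averaged 121 ± 15.9 CPM in Lira livers and 63.0 ± 6.16 CPM in PBS livers (0.94 ± 0.12, adjusted p = 0.00507). Crat, carnitine acetyltransferase, averaged 191 ± 3.94 CPM in Lira livers and 115 ± 17.0 CPM in PBS livers (0.73 ± 0.12, adjusted p = 0.00870). Both kept their call whichever library was left out. Bbox1, the step after Aldh9a1 and named after its values were seen, was at 172 ± 9.88 CPM in Lira livers and 187 ± 9.62 CPM in PBS livers (-0.12 ± 0.10, adjusted p = 0.487).

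Around Aldh3a2, 1 of 12 tested genes of fatty alcohol, sphingosine 1-phosphate and branched fatty acid metabolism rose and 1 fell. Sphk2, a sphingosine kinase, rose (log2 fold change 0.61 ± 0.13, adjusted p = 0.0245). Cyp4v3, a fatty acid hydroxylase, fell (-0.54 ± 0.13, adjusted p = 0.0319). Sphk2 kept its call only without Lira164, and Cyp4v3 only without Lira161 or Lira164. Of 10 genes of mitochondrial stress and NAD supply, Nnt, the transhydrogenase that makes mitochondrial NADPH, rose (88.2 ± 10.5 CPM in Lira livers and 53.8 ± 3.48 CPM in PBS livers, 0.71 ± 0.11, adjusted p = 0.00723). Nnt kept its call whichever library was left out. The C57BL/6J strain is known to carry a deletion within Nnt, which the gene-level counts do not show. The rise in Nnt is thus one of reads alone and not a measure of enzyme activity. DESeq2 called 1 gene of that list lower.

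**Figure D5:**
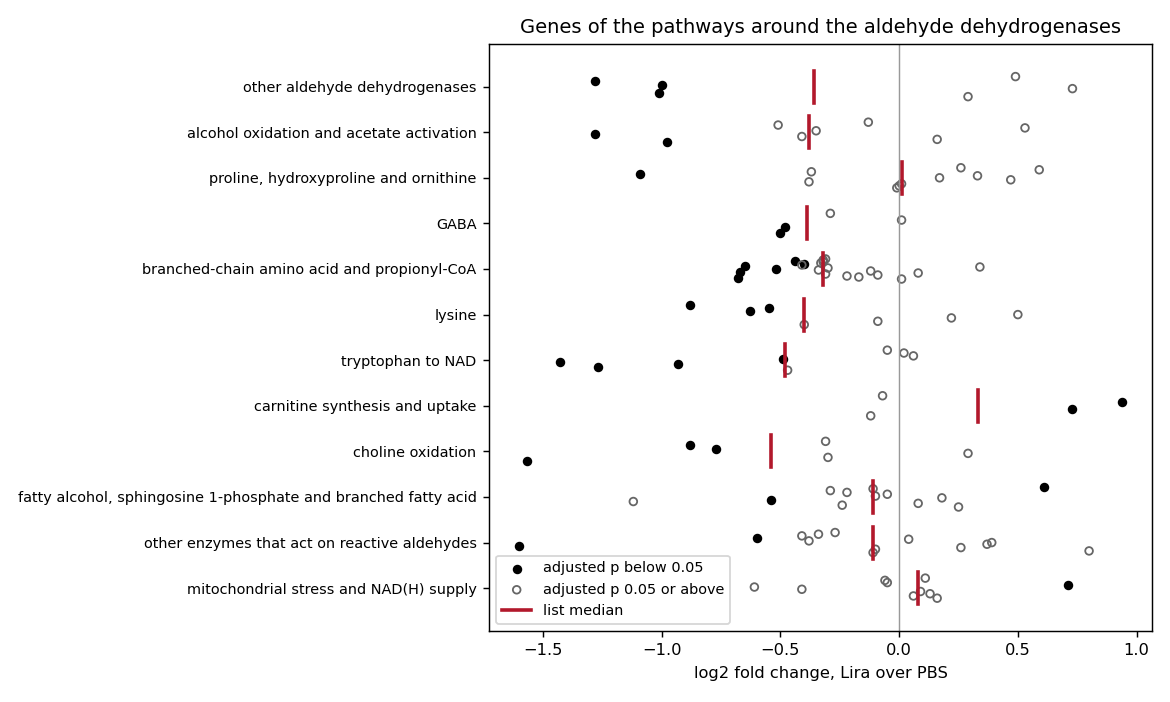
Log2 fold change (Lira over PBS, horizontal axis) of each tested gene in the 12 partner lists, with filled points for an adjusted p below 0.05 and red bars for list medians. Lysine, tryptophan, choline and branched-chain genes lie mostly left of 0, and the 2 called carnitine genes lie at 0.73 and 0.94.

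The genes most like Aldh1b1 across libraries, by Pearson's r of log2 CPM over the 6 libraries among tested genes outside the family, were Slc27a5 (r = 0.9964), Cnot8 (0.9951), Ces2e (0.9949), Tlcd2 (0.9948) and Ebp (0.9936). The 6 libraries form 2 separate groups, so r mostly measures how cleanly a gene divides them and is given as a description only. Within groups the likeness was partial. The Lira libraries had the order of Aldh1b1 in all 5 genes, which were picked for this correlation. The PBS libraries had its order (PBS157 lowest, PBS158 highest) in Ces2e and Tlcd2 but not in Slc27a5, Cnot8 or Ebp. Ces2e has close paralogs, so its value is uncertain.

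Marker genes placed the tissue as liver, with hepatocyte markers summing to 63234 to 79682 CPM in Lira livers and 75378 to 96123 CPM in PBS livers and none of 6 called. Of 8 tested periportal hepatocyte markers 4 fell (Cyp2f2, Hal, Gls2 and Cdh1). The list summed to 7618 to 9369.7 CPM in Lira livers and 6035 to 8835 CPM in PBS livers. On average most of that sum was Pck1 (5648 ± 382 CPM in Lira livers and 4142 ± 1148 CPM in PBS livers), which was not called. Hsd17b13 and Arg1 (log2 fold changes 0.41 and 0.24) and Sds (-0.10) were not called either. Ass1, the untested marker, was at only 0.171 CPM in Lira livers and 0.0408 CPM in PBS livers. The reason for this low level was not tested. Of 9 pericentral markers Cyp1a2 and Rhbg fell, with sums of 11794 to 14151 CPM in Lira livers and 13562 to 15257 CPM in PBS livers. Of 5 tested cholangiocyte markers Spp1 fell, and the list summed to 26.6 to 28.6 CPM in Lira livers and 42.0 to 50.9 CPM in PBS livers. The endothelial marker Clec4g rose (list sums 188 to 293 CPM in Lira livers and 111 to 214 CPM in PBS livers), and the erythroid gene Alas2 fell (42.9 to 100.4 and 152 to 165 CPM in the same groups). Kupffer cell markers summed to 184 to 299.6 CPM in Lira livers and 83.4 to 310.1 CPM in PBS livers, and stellate cell markers to 294 to 347 and 183 to 307 CPM in the same groups. T and natural killer cell markers summed to 2.31 to 2.82 CPM in Lira livers and 0.912 to 1.39 CPM in PBS livers, with no overlap. None of the 3 tested ones was called, and none of these markers averaged above 0.574 CPM (Cd3g in Lira livers). Adipocyte markers summed to 0.193 to 0.500 CPM in Lira livers and 0.599 to 2.05 CPM in PBS livers, and exocrine pancreas markers to 6.95 to 9.40 CPM in Lira livers and 10.1 to 22.3 CPM in PBS livers, also without overlap. On average most of the adipocyte sum was Cfd (0.210 CPM in Lira livers and 1.18 CPM in PBS livers), which was not called. Nearly all of the pancreas sum was Cela1 (8.49 and 16.4 CPM in the same groups), also not called. The other adipocyte and pancreas markers were near 0 in both groups. B cell (2.50 to 3.44 CPM in Lira livers and 1.78 to 3.81 CPM in PBS livers) and neutrophil markers (0.347 to 0.964 and 0.144 to 0.985 CPM in the same groups) overlapped. Hba-a1, Retn and Pnlip were at 0 in all libraries. The part of zonation or cell mixture in the values of the aldehyde dehydrogenases was not tested.

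Overlap with other genes differs between the members. Aldh4a1 shares 1595 bp of exon (32.5%) with the read-through gene Gm21969 on the same strand, Aldh6a1 18.6% with Bbof1 and Aldh5a1 14.1% with 4932702P03Rik on the opposite strand. Aldh7a1 shares 5.79% with Phax, Aldh16a1 2.65% with Pih1d1 and Aldh2 2.54% with Gm42879. Aldh5a1 and Aldh7a1 each overlap 2 genes, of which the one with the larger shared stretch is given. Bbof1, under its older symbol Ccdc176, averaged 0.743 CPM in Lira livers and 1.02 CPM in PBS livers, and 4932702P03Rik averaged 0.0674 and 0.114 CPM in the same groups. Phax averaged 24.0 CPM in Lira livers and 23.5 CPM in PBS livers, and Pih1d1 28.3 CPM in Lira livers and 28.9 CPM in PBS livers, beside 55.4 and 59.8 CPM of Aldh16a1 in the same groups. As the strand setting of the counting is unknown here, reads of the opposite-strand stretches, which include those of Phax, Pih1d1 and Gm42879, cannot be assigned to either gene. Gm21969 lies on the same strand as Aldh4a1, so no strand setting would separate their shared reads. Of the 50-base words of the Aldh4a1 transcript, 45.0% occur in transcripts of other genes, Gm21969 among them. Gm21969 and Gm42879 were not found in the count table. Aldh1b1, Aldh3a2, Aldh8a1 and Aldh9a1 share no exon with another gene and no 50-base word with its transcripts.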

How the data were processed

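The 6 libraries share 1 table that the authors deposited, holding whole-number counts of reads by gene symbol without normalisation. STAR and mm10 are named, per the submitters' processing notes. Counting tool, annotation and strand setting were not given in the sources used here. Column names show the group but no triplicate number, so columns were assigned to groups only. Library totals ran from 20888991 to 27007182 counts and limit the precision of low genes. No 2 libraries of a group were alike within sampling noise (chi-square per degree of freedom 31.0 to 61.3).

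Genes were kept by filterByExpr (12626 tested). The main test was edgeR's quasi-likelihood test (version 4.0.16, R 4.3.3; estimateDisp, robust glmQLFit, glmQLFTest) with TMM factors and a term for group alone. Two-sided p-values received Benjamini-Hochberg adjustment across tested genes and were read at 0.05. SEs were obtained by dividing the absolute log2 fold change by the square root of F. Log2 CPM used a prior count of 2. Positions and exon lengths are from GENCODE M21 (GRCm38, the assembly of mm10), promoters from RefSeq. Older symbols were matched through RefSeq synonyms.

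The members, partner lists and markers were chosen with earlier results of these data known. From each list the up to 4 called genes with the smallest p were named, or 2 abundant genes where none was called, and exceptions are marked. Other scalings (DESeq2 size factors, upper quartile, library totals), 2 other filters, DESeq2's Wald test (1.42.0), limma-voom (limma 3.58.1), a table without its 10 most abundant genes, and fits that omit each library in turn were the alternatives. Transcript length in place of the union of exons was added after the data were seen. The procedure was run on simulated data in which all genes shared a common dispersion. That setting is simpler than these data, so nothing about the results is read from it. Plots came from Python 3.11.15 with matplotlib 3.10.9.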

Additional observations from a re-analysis of the deposited data

How the results depend on the processing

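Of 140 log2 fold changes of the 10 aldehyde dehydrogenases under the 14 alternatives, 130 kept their sign and their side of the threshold. The exceptions were the lost calls of Aldh7a1 (4 fits with a library left out), the gained calls of Aldh4a1 (3) and Aldh6a1 (2), and Aldh16a1, whose log2 fold change ran from -0.23 without Lira162 to 0.03 without PBS158. Members called lower numbered 2, 4 with DESeq2 and 1 to 4 with a library left out, and 1 was called higher under every alternative. Over all tested genes, 1107 were called in either direction, and 393 to 1496 with a library left out, fewest without Lira162 and most without Lira164. Of the partner genes, 3 to 6 were then higher and 13 to 29 lower. With transcript in place of exon length, chosen after the data were seen, the Aldh3a2 share of the members' sum was 30.5% in Lira livers and 15.7% in PBS livers. With library totals as the scaling, 57.2% of called genes were higher, against 46.5% with TMM, and the median of all genes was 0.06 in place of 0.01. The cause of these changes was not tested. No paired analysis was possible because the columns of the count table carry no triplicate number.

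Fits without a library rest on 2 libraries in 1 group. Low counts limit the precision of the family's rare genes: Aldh1a2, Aldh1l2, Aldh3a1, Aldh3b2 and Aldh3b3 (listed under its older symbol) were not tested.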
